A study of Homo sapiens with 6 samples.

Results

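This account covers 10 genes of TGF-β and activin signaling in breast cancer cells in which the long noncoding RNA Smyca was knocked down. They are the ligand genes TGFB1, TGFB2, TGFB3, INHBA and INHBB, the receptor genes TGFBR1, TGFBR2, TGFBR3 and ACVR1B, and LTBP1, which encodes a protein that holds TGF-β in a latent complex. The genes were chosen by name, and each of the 10 was found once among the 58302 genes counted. RNA was sequenced from the breast cancer line MDA-MB-231, described as mesenchymal and basal-like, in 3 control libraries (control shRNA) and 3 knockdown libraries (Smyca shRNA #1). No TGF-β treatment is stated for these libraries, both groups stably express an shRNA, and the knockdown rests on 1 shRNA. The study calls the libraries biological repeats. Neither it nor the labels say how the cultures were separated, and p-values measure the spread between these libraries.

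TGF-β ligands are secreted in a latent form, bound through their propeptide to an LTBP protein in the matrix, and signal after release. The active dimer binds the type II receptor TGFBR2, which phosphorylates the type I receptor TGFBR1, while TGFBR3 (betaglycan) is a co-receptor that presents ligand. The classical activins are dimers of the INHBA or INHBB subunit and signal through the type I receptor ACVR1B to the same Smad proteins, whereas pairing of these subunits with INHA gives inhibins, which oppose activins. In breast tumors TGF-β is known to restrain growth early and to favor invasion later.

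Total counts ranged from 14999307 to 16501085 a library, and levels are given as normalized CPM (CPM of edgeR, the reads of a gene relative to the TMM-scaled library size). Smyca, annotated as MIR23AHG, had 405, 317 and 343 counts in the control libraries and 165, 110 and 85 in the knockdown libraries, a 2.88-fold lower mean level in the knockdown, with an adjusted p of 0.111 by edgeR's quasi-likelihood test. It was called by DESeq2 (adjusted p = 3.71e-05), by edgeR with no filter beyond 1 count (0.000646) and by edgeR without control replicate 3 (0.0152). ZSWIM4, which overlaps MIR23AHG on the other strand, had up to 703 counts. Control replicate 3 stood apart: its log2 CPM correlated across genes at 0.956 and 0.965 with the other controls, which correlated at 0.991 with each other, and at 0.972 to 0.974 with the knockdown libraries, where control replicate 2 was at 0.971 to 0.974 and control replicate 1 at 0.955 to 0.961. Knockdown replicate 3 correlated at 0.976 and 0.980 with the other knockdowns, which correlated at 0.991. Reads recovered from the FPKM values of control replicate 2 correlated at 0.996 with control replicate 3 and at 0.956 with control replicate 1, so that by that column control replicate 1 was the one farther from the other controls, and each value given without control replicate 3 rests on the count columns. The markers only partly matched the labelled line. Of 11 mesenchymal basal-like markers 9 passed the low-count filter, with VIM at 71.2 to 305 normalized CPM, but IL6 had 0 counts and SPARC at most 0.677 normalized CPM. The epithelial genes CDH1 (71.5 to 300.1), EPCAM (236 to 336) and ESRP1 (128 to 188) and the gut genes HNF4A (65.4 to 194) and VIL1 (220.5 to 501) were detected in every library, whereas epithelial KRT20 was at most 0.369, gut GPA33 at most 0.370 and gut LGALS4 at most 1.34. The luminal breast genes KRT8 (4249 to 7408), KRT18 (987 to 1379), KRT19 (850 to 1957) and ERBB3 (91.7 to 132) were also detected in every library. Luminal ESR1, PGR and FOXA1 were at most 0.192. Liver SERPINA1 was at 26.3 to 74.2 and liver ALB at most 0.256, fibroblast COL1A1 at 6.46 to 21.2 and immune LYZ at most 0.369. No other cell type name was given to the cells. Summed over the 11 mesenchymal markers, levels were 768 to 1581 in the control and 751 to 1065 in the knockdown, and 9 of the 9 tested had a log2 fold change above 0, toward the control. Over the 5 epithelial markers the sums were 771 to 941 in the control and 635 to 761 in the knockdown, with 3 of the 4 tested above 0. The summed level of 9 gut markers, of which CDX1 was at 0 counts, was 424 to 693 in the control and 720 to 914 in the knockdown. Of the 7 tested gut markers 2 (LGALS4 and TFF3) had a log2 fold change above 0, toward the control. By edgeR with all 6 libraries and the low-count filter 0 markers of any list were called. The mesenchymal marker PLAU was called by DESeq2 (adjusted p = 2.54e-05) and by edgeR without control replicate 3 (0.00506). Such values of the other markers are not given here. The part of these markers in the results on the ligands and receptors was not tested. In bulk RNA, fewer cells of a type and less RNA per cell cannot be told apart.

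The sequences upstream of 4 of the genes are shown because the study concerns Smad proteins, which bind CAGAC, and Myc, which binds the E-box CACGTG. They are the 250 bases before the first listed RefSeq start (GRCh38.p14), in lower case with CAGAC, its complement GTCTG and CACGTG in capitals. INHBB (chr2:120345886-120346135, plus strand) is the gene with the smallest p-value, TGFB3 (chr14:75983012-75983261, minus strand) and ACVR1B (chr12:51951449-51951698, plus strand) hold an E-box, and LTBP1 (chr2:32946703-32946952, plus strand) had the largest ratio toward the control.
INHBB: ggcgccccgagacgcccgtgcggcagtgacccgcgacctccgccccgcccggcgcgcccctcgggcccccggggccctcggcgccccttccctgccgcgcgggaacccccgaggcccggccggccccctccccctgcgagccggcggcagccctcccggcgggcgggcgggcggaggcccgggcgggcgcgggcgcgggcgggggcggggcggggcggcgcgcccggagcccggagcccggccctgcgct
TGFB3: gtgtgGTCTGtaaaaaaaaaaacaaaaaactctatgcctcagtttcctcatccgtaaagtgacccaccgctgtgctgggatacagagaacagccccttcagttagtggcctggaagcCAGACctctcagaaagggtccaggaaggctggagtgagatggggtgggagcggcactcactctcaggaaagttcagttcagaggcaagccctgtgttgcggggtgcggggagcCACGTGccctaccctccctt
ACVR1B: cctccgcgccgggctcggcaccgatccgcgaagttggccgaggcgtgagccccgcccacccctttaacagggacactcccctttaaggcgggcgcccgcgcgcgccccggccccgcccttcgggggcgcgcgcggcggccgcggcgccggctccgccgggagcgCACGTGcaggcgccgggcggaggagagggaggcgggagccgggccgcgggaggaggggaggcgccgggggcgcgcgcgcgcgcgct
LTBP1: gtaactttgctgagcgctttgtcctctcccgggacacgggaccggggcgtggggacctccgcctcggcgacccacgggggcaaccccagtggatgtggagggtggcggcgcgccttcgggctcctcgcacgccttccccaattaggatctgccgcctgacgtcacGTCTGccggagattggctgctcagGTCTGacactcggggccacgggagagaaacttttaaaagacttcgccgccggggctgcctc
The INHBB sequence holds neither motif, as is the case in the listed windows of TGFB1, INHBA, TGFBR2 and TGFBR3, and has a GC content of 89.6%, against a median of 58% over 35116 promoter windows. The E-box CACGTG begins 20 bases before the first listed start of TGFB3, 86 before that of ACVR1B and 49 before that of TGFB2. The second listed windows of TGFB3 and ACVR1B hold no E-box. It was found in 3 of the 22 windows listed for the 10 genes (13.6%) and in 6.34% of all windows. CAGAC, on either strand, was found in 10 of the 22 windows (45.5%), in 5 of the 10 genes, and in 38.0% of all windows. CAGAC and CACGTG can share a base, as they do before TGFB2. The palindromic Smad element GTCTAGAC, found in 0.182% of all windows, and the AP-1 site TGANTCA, found in 6.57%, had no match in the 22 windows. Some of the 22 windows overlap, TGFBR1 alone has 8 of them, and a match in letters is not a bound site.

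Of the 10 genes, 8 passed the low-count filter and were tested, and INHBA and TGFB2 were not. By the quasi-likelihood test of edgeR, with p-values adjusted by Benjamini-Hochberg across the whole table, 0 of the 8 were called, for which the control to knockdown ratio had to reach 1.5 (or fall to 0.66) with an adjusted p below 0.05, beside 4 of 15075 genes tested (0.0265%). With an unadjusted p under 0.05 there were 3 of the 8, all higher in the knockdown (TGFB3, INHBB and TGFBR1), against 8.74% of all genes tested in that direction. DESeq2, which gave TGFB3 no adjusted p, called 1 of the 8, INHBB. It called 2.55% of the 13315 genes with an adjusted p higher in the knockdown. With no filter beyond 1 count, edgeR called INHBB and 1.14% of genes higher in the knockdown. Without control replicate 3, edgeR called 2 of the 8, INHBB and TGFBR1, with 4.04% of all genes called higher in the knockdown. The groups did not overlap in 2 of the 8 genes, INHBB and ACVR1B, both higher in the knockdown, against 12.5% of all genes tested. Log2 fold changes are control over knockdown, so that negative values are higher in the knockdown. Their median over the 8 genes was -0.05, with 4 on either side of 0, and over all genes tested it was 0.04.

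**Figure D1:**
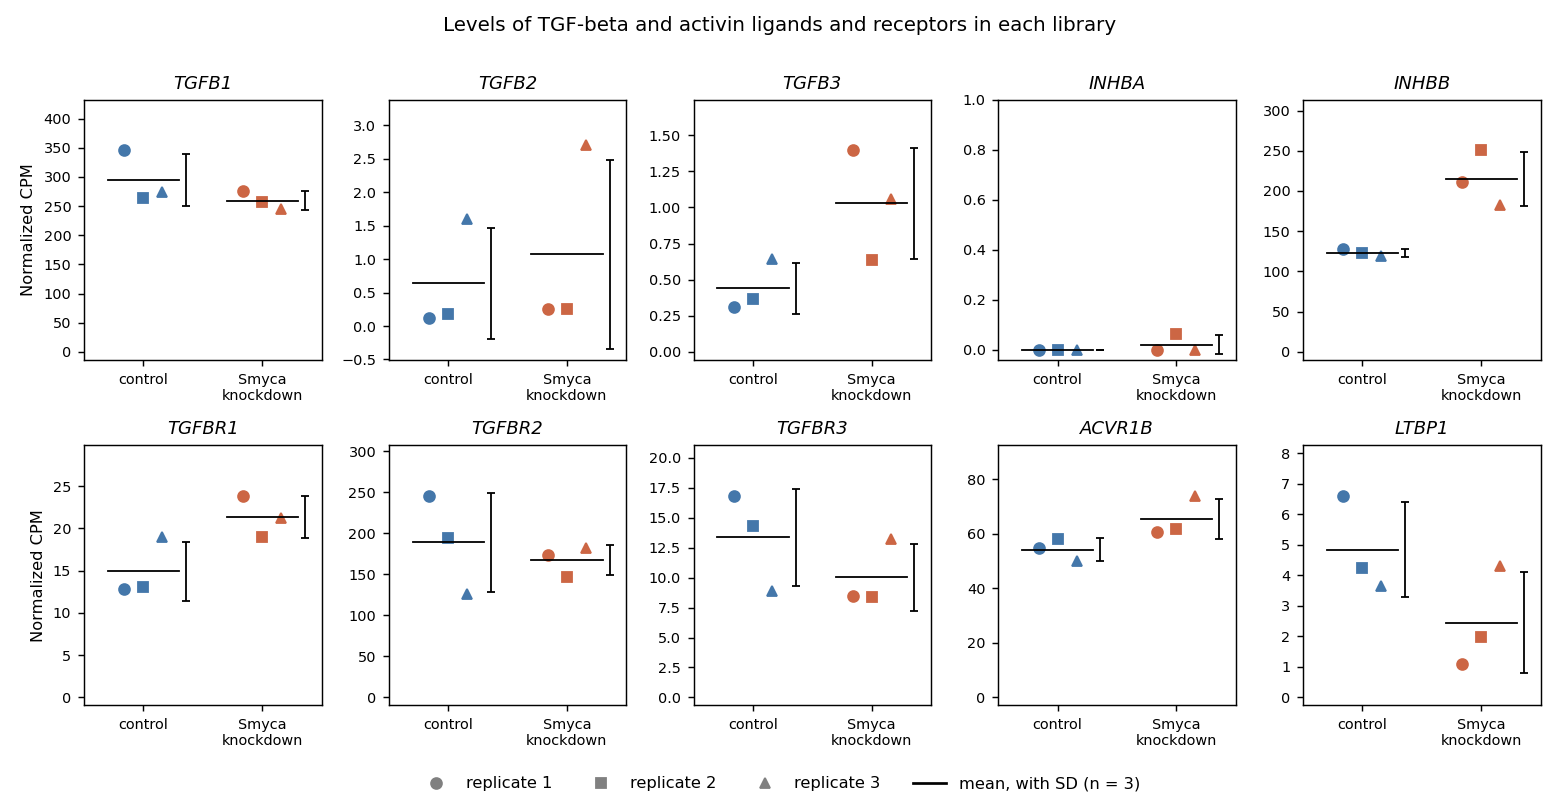
Normalized CPM of the 10 genes (vertical axes, linear and scaled to each gene) in the 3 control and 3 Smyca knockdown libraries. Points are libraries, horizontal lines group means and bars SD (n = 3). INHBB and ACVR1B are the genes whose groups do not overlap, and TGFB2 is highest in replicate 3 of both groups.

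INHBB, the activin βB subunit gene (chromosome 2, 120346136 to 120351803 in GRCh38), had 128, 123 and 119 normalized CPM in the control libraries and 212, 251 and 183 in the knockdown libraries. Every knockdown library was above every control library, and the controls, replicate 3 included, lay close together. The means were 123 ± 4.93 and 215 ± 33.9 (SD, n = 3), 1.75-fold higher in the knockdown. The log2 fold change was -0.80 (SE 0.16, 95% interval -1.16 to -0.45), with an unadjusted p of 0.00073 and an adjusted p of 0.111 by edgeR's quasi-likelihood test. It ranked 89th by p among the 15075 genes, so the difference was larger than the spread between libraries but did not meet the threshold after adjustment. The adjusted p was 0.000941 by DESeq2 and 0.0271 by edgeR without control replicate 3, and over all alternatives it ranged up to 0.440.

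INHBA, the activin βA subunit gene, had 0 counts in 5 libraries and 1 count in knockdown replicate 2. A count of 0 allows up to 3 counts, or 0.184 to 0.198 normalized CPM depending on the library, for counting error only. Of the INHBA and INHBB subunit genes, INHBB alone thus had more than 1 count in these libraries. INHA, the inhibin α subunit gene, which was listed among the other ligands and not among the 10 genes, had 98, 99 and 62 counts in the control and 26, 25 and 35 in the knockdown. Its groups did not overlap in the direction opposite to INHBB, with a log2 fold change of 1.54 (SE 0.32) and an adjusted p of 0.111 by edgeR's quasi-likelihood test, or 0.00384 by DESeq2. Reads of INHA and of OBSL1, which overlaps it on the other strand with up to 4600 counts and a log2 fold change of 0.27, can be told apart only if the counting used strand, which is not given in the sources used here.

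Per length, the ratio of INHBB to INHA was 7.01, 6.65 and 9.85 in the control libraries and 42.3, 52.2 and 26.1 in the knockdown libraries. The lowest knockdown library was above the highest control library. The ratio was chosen after its values were seen, with the groups of both genes already not overlapping in opposite directions. A two-sided exact permutation test was thus bound to give p = 0.1, the smallest that 3 against 3 libraries allow. This permutation p was 0.2 after adjustment over 2 ratios, and it adds no support.

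**Figure D2:**
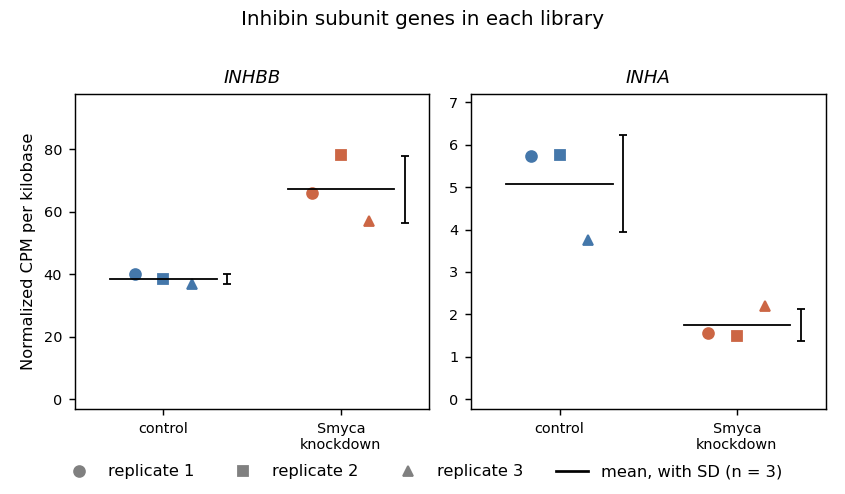
Normalized CPM per kilobase of INHBB and INHA (vertical axes, linear, with separate scales) in the control and knockdown libraries. Points are libraries, lines means and bars SD (n = 3). INHBB is higher and INHA lower in each of the 3 knockdown libraries than in any control library.

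TGFB1, the ligand gene with the highest level of the 3 TGF-β genes, had 346, 264 and 273 normalized CPM in the control and 276, 257 and 245 in the knockdown. Control replicate 1 was the highest, and the other 5 libraries lay within 245 to 276. The means of 294 ± 44.8 and 259 ± 15.6 (SD, n = 3) gave a log2 fold change of 0.18 (SE 0.16, 95% interval -0.17 to 0.54) and an adjusted p of 0.549 by edgeR's quasi-likelihood test. No difference was detectable, and without control replicate 1 the log2 fold change was 0.05. Per length, TGFB1 made up 99.3 to 99.9% of the summed level of TGFB1, TGFB2 and TGFB3 in each library. The gene lies on chromosome 19 (41301587 to 41353922, minus strand) and overlaps HNRNPUL1 on the other strand, which had up to 14616 counts and a log2 fold change of -0.57 (adjusted p = 0.126 by edgeR's quasi-likelihood test).

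TGFB3, another ligand of the same receptors, had low counts of 5, 6 and 10 in the control and 22, 10 and 16 in the knockdown. As normalized CPM, control replicate 3 (0.640) lay just above knockdown replicate 2 (0.633), so that the groups touched. The mean level was 2.34-fold higher in the knockdown, with a log2 fold change of -1.22 (SE 0.50, 95% interval -2.35 to -0.09), an unadjusted p of 0.0379 and an adjusted p of 0.233 by edgeR's quasi-likelihood test. Without control replicate 3 the log2 fold change was -1.58, without knockdown replicate 1 it was -0.94, and with the reads recovered from the FPKM column of control replicate 2 (20 in place of 6) it was -0.55. The adjusted p was 0.0960 or higher in each of these edgeR fits.

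TGFB2 had 2, 3 and 25 counts in the control and 4, 4 and 41 in the knockdown. The counts were high in replicate 3 of both groups and near the floor in the other 4 libraries, and the gene did not pass the filter. With no filter beyond 1 count its log2 fold change was -0.79 (SE 0.74), with a library left out it was -1.22 to -0.26 where it passed the filter, and with the FPKM-derived reads of control replicate 2 it turned to 0.25 (SE 1.07). The antisense gene TGFB2-AS1 had at most 7 counts.

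TGFBR1, the type I TGF-β receptor gene, had 12.8, 13.0 and 19.0 normalized CPM in the control and 23.9, 18.9 and 21.2 in the knockdown. Control replicate 3 lay within the knockdown range and touched its lowest library, while the other 2 controls were below every knockdown library. The mean was 1.43-fold higher in the knockdown. The log2 fold change was -0.51 (SE 0.21), with an unadjusted p of 0.0406 and an adjusted p of 0.238 by edgeR's quasi-likelihood test. Without control replicate 3 it was -0.73 (SE 0.19) with an adjusted p of 0.0430 by edgeR, which met the call rule. It was -0.41 (adjusted p = 0.549 by edgeR) without control replicate 1. With the FPKM-derived reads of control replicate 2 it was -0.35 (0.373). The 95% intervals of these last fits include 0.

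TGFBR2, the ligand-binding type II receptor gene, had 246, 194 and 126 normalized CPM in the control and 174, 146 and 182 in the knockdown. The control libraries alone spanned the whole range of the knockdown. The log2 fold change was 0.17 (SE 0.24, 95% interval -0.36 to 0.71), with an adjusted p of 0.716 by edgeR's quasi-likelihood test, and the sign turned to -0.06 without control replicate 1. Without control replicate 3, the lowest library, it was 0.39 with an adjusted p of 0.153.

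The per-length ratio of TGFBR2 to TGFBR1 was 10.1, 7.84 and 3.51 in the control and 3.84, 4.07 and 4.52 in the knockdown. Control replicate 3 had the lowest ratio of all 6 libraries, below the knockdown range, and the other controls were above it. A two-sided exact permutation test gave p = 0.4. On the log2 scale (normalized CPM plus 0.5), control replicate 3 was, of the 8 tested genes, nearer to the knockdown mean than to the mean of the other controls in 5 (TGFB1, TGFB3, TGFBR1, TGFBR2 and TGFBR3), beside 54.4% of all genes tested. TGFB3 was close to the middle, and on the linear scale it leaves this list and LTBP1 enters it.

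TGFBR3, the co-receptor betaglycan gene, had 16.8, 14.3 and 8.90 normalized CPM in the control and 8.44, 8.36 and 13.3 in the knockdown. Replicate 3 lay with the opposite group in each case. The log2 fold change was 0.41 (SE 0.30) with an adjusted p of 0.481 by edgeR's quasi-likelihood test. It was 0.22 without control replicate 1, 0.63 without control replicate 3, 0.66 without knockdown replicate 3 and 0.11 with the FPKM-derived reads of control replicate 2. ACVR1B, the type I activin receptor gene, had 54.5, 58.1 and 49.9 normalized CPM in the control and 60.4, 61.6 and 73.9 in the knockdown. Its groups did not overlap, but the closest libraries of the 2 groups differed little. The log2 fold change was -0.27 (SE 0.15, 95% interval -0.60 to 0.07), and the adjusted p was 0.351 by edgeR's quasi-likelihood test.

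LTBP1, which ties latent TGF-β to the matrix, had 6.60, 4.25 and 3.65 normalized CPM in the control and 1.08, 1.96 and 4.29 in the knockdown. Knockdown replicates 1 and 2 were below every control, and knockdown replicate 3 lay within the control range. The control mean was 1.98 times that of the knockdown, and the log2 fold change was 0.98 (SE 0.50, 95% interval -0.15 to 2.11), at an adjusted p of 0.317 by edgeR's quasi-likelihood test. The value moved with the library left out, from 0.62 without knockdown replicate 1 and 0.70 without control replicate 1 to 1.65 without knockdown replicate 3, where the adjusted p was lowest at 0.146 by edgeR's quasi-likelihood test.

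**Figure D3:**
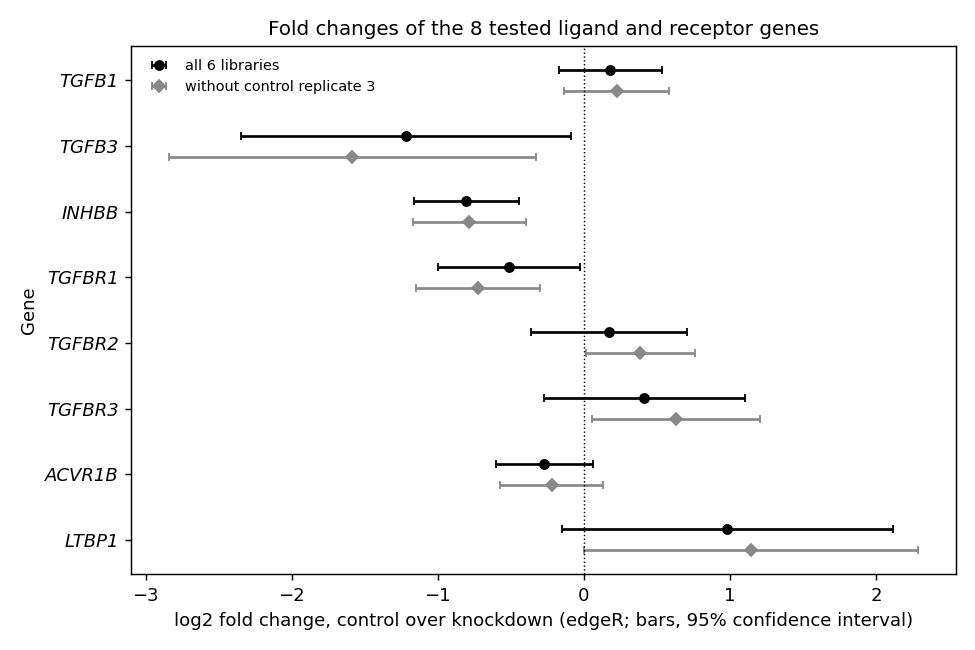
Log2 fold change, control over knockdown (horizontal axis), of the 8 tested genes with 95% confidence intervals from edgeR, for all 6 libraries (circles) and without control replicate 3 (diamonds). INHBB, TGFBR1 and TGFB3 lie below 0 with intervals that exclude 0 in both fits, and without control replicate 3 the lower bounds of TGFBR2 (0.02), TGFBR3 (0.05) and LTBP1 (0.00170) lie just above 0.

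Levels between genes were compared per kilobase of the gene length behind the deposited FPKM. These lengths were 1030 bases for TGFB1, 4613 for TGFBR2, 3204 for INHBB and 1057 for INHA. Whether they match the transcripts in these cells was not tested, and levels and ratios per length between genes rest on them. In the control the order was TGFB1 (286 ± 43.5 normalized CPM per kilobase, SD, n = 3), TGFBR2 (40.9 ± 13.0), INHBB (38.5 ± 1.54), ACVR1B (28.9 ± 2.20), TGFBR1 (6.16 ± 1.43), TGFBR3 (4.70 ± 1.43), LTBP1 (1.85 ± 0.596), TGFB3 (0.358 ± 0.144), TGFB2 (0.213 ± 0.280) and INHBA (0). The ranges of 3 neighboring pairs overlapped: TGFBR2 with INHBB, TGFBR1 with TGFBR3, and TGFB3 with TGFB2. In the knockdown INHBB (67.2 ± 10.6) came after TGFB1 and before TGFBR2 (36.3 ± 4.05), and their ranges did not overlap. The ratio of TGFB1 to INHBB per length was 6.69 to 8.38 in the control and 3.18 to 4.17 in the knockdown. ACVR1B was above TGFBR1 in each library.

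**Figure D4:**
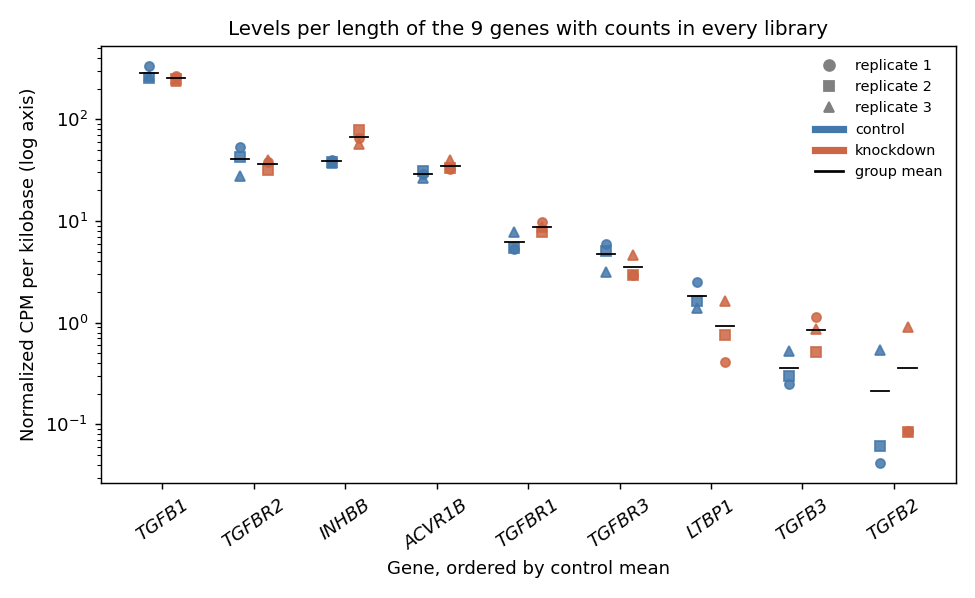
Normalized CPM per kilobase (vertical axis, log scale) of the 9 genes with at least 1 count in every library, ordered by the control mean. Points are libraries and black lines group means. TGFB1 is the highest gene in each library, and INHBB is the second highest in each knockdown library.

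Other genes of the pathway were read from 6 lists by role, 56 genes in all, of which 47 were tested. The lists were written with earlier results of these data known, so their counts cannot be weighed against the shares of all genes as independent lists could. In the fit of all 6 libraries 0 of the 47 were called. The unadjusted p was under 0.05 for 14 genes higher in the control (10.4% of all genes tested) and 2 higher in the knockdown (8.74%). Without control replicate 3, 13 were called higher in the control, where 6.5% of all genes were, and 1 higher in the knockdown (4.04%). DESeq2 called 8 higher in the control (3.83% of all genes) and 1 higher in the knockdown (2.55%).

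Among the other ligands 5 of 9 were tested, with a median log2 fold change of 1.42. The smallest p-values were those of GDF15, a stress-induced secreted factor (1.61, SE 0.27), INHA (1.54) and INHBC, an inhibin βC subunit gene (1.42, SE 0.52). INHBC, whose value is the median, had 7 to 43 counts, and its groups overlapped. NODAL, MSTN, LEFTY1 and LEFTY2 were not tested, as none of them exceeded 7 counts in any library. Of the 8 other receptors 7 were tested, with a median of 0.09, led by ENG, the co-receptor endoglin (1.20, SE 0.33), ACVR1 (0.79, SE 0.27) and the decoy receptor gene BAMBI (-0.44, SE 0.45), which moved with the library left out, from -0.82 without knockdown replicate 3 to -0.17 without control replicate 3 and -0.04 without knockdown replicate 1. ACVRL1 had 3 to 19 counts and was not tested. All adjusted p-values of these genes were 0.111 or higher by edgeR's quasi-likelihood test with all 6 libraries, TMM and the low-count filter. Without control replicate 3 edgeR called GDF15 (adjusted p = 0.0145), INHA (0.0129), INHBC (0.0429) and ENG (0.0289), where 6.5% of all genes were called higher in the control. DESeq2 called GDF15 (7.87e-06), INHA (0.00384) and ENG (0.0258), where it called 3.83%.

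Latency and activation genes were tested in 12 of 13 cases, with a median of 0.30. PLAU, the protease urokinase (1.67, SE 0.28), LTBP4, a relative of LTBP1 (0.99, SE 0.22), and FBN1, the matrix protein fibrillin (1.29, SE 0.52), had the smallest p-values. All 3 were higher in every control library than in any knockdown library, as 3 of the 12 were, against 12.4% of all genes tested. LRRC32 had at most 2 counts and was not tested. Extracellular inhibitors were mostly low: FST, DCN and BGN did not pass the filter, and FSTL3 and CD109 had log2 fold changes of 0.25 and 0.06 whose sign turned under some alternatives.

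Receptor partners and turnover genes were all tested (13 of 13), with a median of -0.01. PPP1R15A, a phosphatase subunit that binds the type I receptor complex (1.53, SE 0.29), was higher in the control. TGFBRAP1, a receptor-associated protein (-0.69, SE 0.19), and the deubiquitinase gene USP11 (-0.44, SE 0.16) were higher in the knockdown. By edgeR with all 6 libraries none of these 3 was called, while PPP1R15A and TGFBRAP1 were called by DESeq2, with no filter beyond 1 count and without control replicate 3. The 8 known target genes of TGF-β had a median of 1.04, and 7 of 8 were above 0, while TGFBI was at -0.31 (SE 0.16). The groups did not overlap in 2 of the 8 toward the control and in 1, TGFBI, toward the knockdown. The shares of all genes tested were 12.4% and 12.5%. Among the targets ANGPTL4, a secreted angiopoietin-like protein, was at 2.80 (SE 0.81). ITGA5, an integrin subunit, was at 1.56 (SE 0.52), or 0.94 without control replicate 1. For ANGPTL4 and ITGA5, control replicate 3 (9 and 788 counts) lay within the range of the knockdown libraries. Of the 8 targets 0 were called by edgeR with all 6 libraries, 2 by DESeq2 (3.83% of all genes, higher in the control) and 4 by edgeR without control replicate 3 (6.5% of all genes), each of them higher in the control.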

How the data were processed

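After rRNA removal and a strand-specific preparation, the authors mapped paired reads to GRCh38 (hg38) with TopHat2 2.0.12 and deposited raw counts per Ensembl gene from HTSeq. The annotation release and strand setting of the counting are not given in the sources used here. An FPKM column deposited beside the count was used here for gene lengths and, in control replicate 2, as an alternative. In that library the FPKM column did not follow its counts. Whole reads were recovered from it for 99.99% of 23593 genes (within 0.01).

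Genes were named through GENCODE release 44 (57532 of 58302 matched). Counts were tested in R 4.3.3 with edgeR 4.0.16 (TMM, filterByExpr, quasi-likelihood test, Benjamini-Hochberg over all genes tested), and DESeq2 1.42.0 was an alternative. Others were DESeq-type (RLE) scaling, scaling by the total alone, 2 count filters, the replicate number as a block, the reads behind the FPKM column, and each library left out. Samples were grouped by title. The biological coefficient of variation was 25.2%. Pathway genes were named as the 3 tested genes of each list with the smallest p, and those failing the filter, and 1 gene that this rule names is not reported here. The code was tested on simulated data. The 10 genes and all lists were chosen with earlier results of these data known. Motifs were searched by letters in RefSeq promoter windows, without the last 50 bases.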

Additional observations from a re-analysis of the deposited data

Results flagged for a closer look

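In control replicate 2, the whole reads behind the deposited FPKM column gave 2 of the 10 genes levels above those of every control library in the count columns. TGFB2 had 36 such reads, or 2.02 normalized CPM, against 3 counts and 0.185 in the count column and 1.60 in control replicate 3, the highest control. TGFB3 had 20 such reads, or 1.12 normalized CPM, against 6 counts and 0.369 in the count column and 0.640 in control replicate 3. Across genes, log2 CPM from these reads correlated at 0.996 with control replicate 3 and at 0.965 with the counts of control replicate 2 itself. For INHBB both columns gave close levels (122 from the reads and 123 from the counts). For TGFBR1 they were 18.1 and 13.0, and for TGFBR2 127 and 194, near the 19.0 and 126 of control replicate 3. Which column belongs to the library was not tested.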

How the results depend on the processing

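Of 25 named genes that passed the low-count filter, 22 kept the direction of their fold change in every alternative in which they were tested. The others were TGFBR2, FSTL3 and CD109. TGFB2, which did not pass it and is not among these, also turned sign between alternatives (-0.79 with no filter, 0.25 with the FPKM-derived reads). With the FPKM-derived reads of control replicate 2, TGFBR2, FSTL3 and CD109 turned to log2 fold changes of -0.0135, -0.0340 and -0.102, and with a library left out they ranged from -0.0577 to 0.388, -0.0481 to 0.552 and -0.0431 to 0.179. The number of all genes called was 4. It was 8 without a composition factor, 916 of 30409 with no filter beyond 1 count, 850 with DESeq2 and 10 with the FPKM-derived reads, and with a library left out it ranged from 0 to 1628, the highest without control replicate 3. Of the 10 genes, 1 was called with no filter beyond 1 count and 1 with DESeq2 (INHBB in both), and with a library left out 0 to 2. Of the pathway genes, 9 were called with no filter, 9 with DESeq2, and 0 to 14 with a library left out. The median log2 fold change of the tested genes moved from -0.05 to 0.19 with at least 10 counts in every library, which drops TGFB3, and ranged from -0.16 to 0.00 with a library left out. Ordering by CPM with no length exchanged 2 genes, TGFB2 and TGFB3. Nothing in the sources used here states that libraries with the same replicate number were handled together. Same-numbered libraries correlated at 0.06, 0.08 and -0.01 in their deviations from the group means. With the replicate number as a block, 0 genes were called, 2568 had an unadjusted p under 0.05, and the adjusted p of INHBB was 0.176 by edgeR. For TGFB2, TGFB3 and INHBA, with at most 41 counts in any library, depth limits what can be detected. Except where stated the cause was not tested.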
